A study of Gossypium hirsutum with 6 samples.

Results

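The RuBisCO activase genes of upland cotton (Gossypium hirsutum) were chosen by description and by level, as the rows of the deposited gene table whose protein description names ribulose bisphosphate carboxylase/oxygenase activase and whose mean level reached 1 FPKM in at least 1 group. FPKM counts fragments per unit of transcript length and of mapped fragments in the library. Of 72761 genes, 9 carried the description and 8 reached the threshold. Within the family, the values that chose them were the mean levels of the groups, not the difference between groups. The family itself was chosen with earlier results of these data known, so its calls are no independent support. All 8 members reached 1 FPKM in both groups, so none passed through a high level in 1 group only.

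Leaf RNA was sequenced in 6 libraries. The groups were 3 libraries of transgenic lines, with FPF1 in their titles, and 3 of the wild type, with W10 in theirs. The study concerns flowering promoting factor 1 (FPF1) in shade avoidance, in which plants elongate when neighbours crowd them, and the comparison addresses how the lines differ from the wild type in leaf transcripts. The labels give no promoter, number of lines, plant age, time of collection or growth treatment for the libraries used here. Nor do they say if replicates came from different plants or lines. Each p thus measured only the spread among these libraries, part of which may be technical.

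RuBisCO fixes carbon dioxide in the Calvin cycle of the chloroplast, and its active sites become blocked when sugar phosphates bind to them too tightly. RuBisCO activase is an AAA+ ATPase of the chloroplast stroma that spends ATP to pull those inhibitors out. It is encoded in the nucleus, often as a larger and a smaller form, and in Arabidopsis the larger form is switched by thioredoxin f and the transcript follows light and the circadian clock. The enzyme loses activity in heat at moderate temperatures and has been studied for that reason in cotton leaves.

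The leaves of the transgenic lines held more transcript of an activase gene on chromosome D10, GH_D10G2562, at 3.31 times the wild-type mean, and less of one on chromosome D04, GH_D04G1365, where the wild type stood 2.49 times higher. The pair of genes on chromosomes A06 and D06, which supplied most of the activase transcript in every library, stood at 1.56 and 1.53 times the wild-type mean without passing the test. The 3 members that lack the RuBisCO activator term in the deposited annotation stood at 0.879 to 0.892 times the wild-type mean, with overlapping groups.

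Limma, a linear model fitted across all genes, was run on log2(FPKM + 1). At an adjusted p under 0.05 it called 2 of the 8 members, 1 in each direction. Among the 43837 genes in the fit, the share called was 5.7%, with 3.92% higher and 1.78% lower. In 5 members the groups did not overlap, 4 of them higher in the transgenic libraries. The same held for 30.1% of all tested genes, 20.6% being higher. The median log2 difference was 0.24 over the 8 members and 0.08 over all tested genes. With so few members, in a family chosen with earlier results of these data known, these shares are given as a description.

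Across the whole table, 52037 to 53560 genes stood above 0 in a library. Read totals are unknown, and relative depth, estimated from the smallest values, was 0.99 to 1.14 in the transgenic libraries and 1.19 to 1.28 in the wild type. The FPF1-like gene GH_D02G0524 stood at 133, 199 and 195 FPKM across the transgenic libraries and was listed at 0, 0 and 0.467 in wild type 1 to 3, so it separated the libraries as the labels do. The labels do not pair the transgene with an identifier. Of the genes called, 68.8% were higher in the transgenic libraries as deposited, 53.7% after median-of-ratios scaling and 57.3% after upper quartile scaling, which moved the median of all genes by -0.08 and -0.06 on the log2 scale.

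Wild-type leaf carried most activase transcript from a pair of genes. GH_D06G1938, described as activase 2-like, stood at 126, 97.1 and 152 FPKM in the wild-type libraries 1 to 3 and at 173, 200.0 and 199 FPKM across the transgenic libraries. Every transgenic library stood above every wild-type library, with wild type 2 the lowest. Its level was 190.5 ± 15.3 FPKM in the transgenic libraries against 125 ± 27.3 FPKM in the wild type, where ± here and below is the SD over n = 3 libraries. The log2 difference was 0.63 with a standard error of 0.17 (limma adjusted p = 0.0784), and its 95% interval ran from 0.23 to 1.02. It was called only when wild type 3 was left out (adjusted p = 0.0363).

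GH_A06G1911, described as activase 1-like, stood at 77.9, 58.5 and 83.9 FPKM in the wild-type libraries and at 101, 114 and 128 FPKM across the transgenic libraries. As with the gene on D06, the groups did not overlap and wild type 2 was lowest. The log2 difference was 0.64 with a standard error of 0.16 (limma adjusted p = 0.0625), a 95% interval of 0.27 to 1.02, and the gene was called under none of the 12 alternative settings, with adjusted p from 0.0513 upward.

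The A06 and D06 genes, read as counterparts in the A and D subgenomes from their chromosome numbers alone, kept nearly the same proportion in all libraries. The A06 gene made up 36.9%, 36.4% and 39.2% of their summed FPKM in the transgenic libraries and 38.2%, 37.6% and 35.6% in the wild type. The groups overlapped, and the profiles of the pair over the 6 libraries were the most alike among the members, with a root mean square difference of 0.0727 on the log2 scale after each was centred on its mean. Reads of such close copies may be shared between identifiers, so their separate levels are less certain than their sum.

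**Figure D1:**
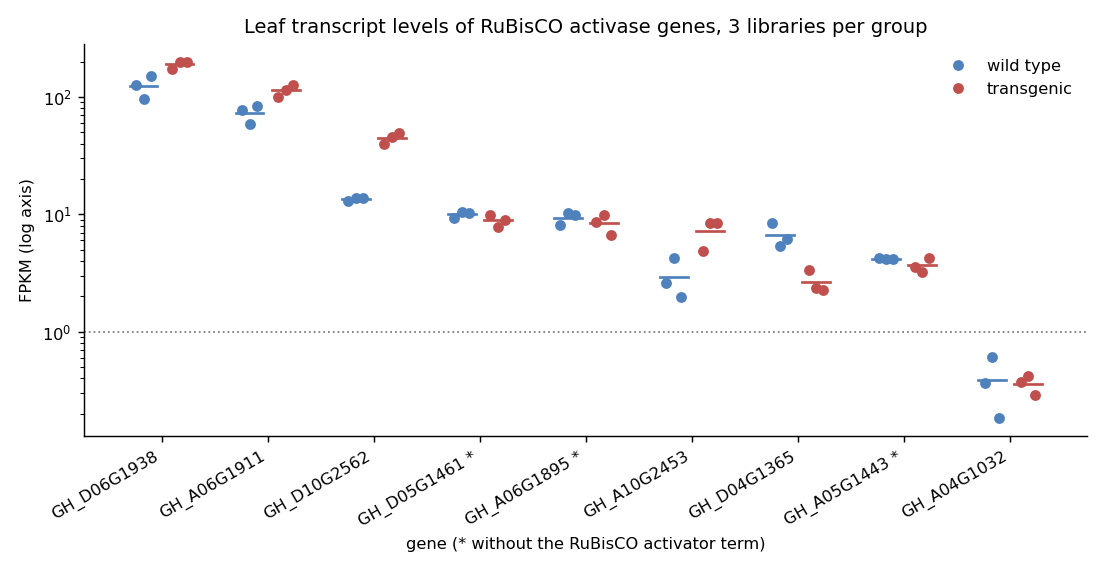
FPKM on a log axis for the 9 genes described as RuBisCO activase, ordered by mean level, with 3 wild-type libraries (blue points), 3 transgenic libraries (red points), group means (short lines) and the 1 FPKM threshold (dotted). GH_D10G2562 shows the widest gap between groups, with 12.9 to 13.9 FPKM in the wild type and 39.8 to 49.2 in the transgenic libraries, while genes marked with an asterisk overlap.

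The strongest difference was that of GH_D10G2562, described as activase 2. It stood at 12.9, 13.8 and 13.9 FPKM in the wild-type libraries and at 39.8, 45.4 and 49.2 FPKM across the transgenic libraries. The wild-type libraries lay within about 1 FPKM of each other, and the lowest transgenic library was far above them. The level rose from 13.6 ± 0.564 to 44.8 ± 4.74 FPKM (log2 difference 1.65, standard error 0.109, limma adjusted p = 0.00136), the 344th largest positive difference among the tested genes. It was called under all 12 alternative settings, with log2 differences of 1.56 to 1.73 and adjusted p of 0.00129 to 0.0159.

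Its counterpart by chromosome number, GH_A10G2453 (activase 2-like), was a weakly expressed gene. It stood at 2.60, 4.26 and 1.96 FPKM in the wild-type libraries and at 4.89, 8.51 and 8.39 FPKM across the transgenic libraries. The groups did not overlap, but transgenic 1 lay close to wild type 2. The log2 difference was 1.08 with a standard error of 0.273 (limma adjusted p = 0.0657), and the gene was called only when wild type 2 was left out (adjusted p = 0.0343). The A10 gene made up 10.9% to 15.8% of the summed level of the pair in the transgenic libraries and 12.3% to 23.6% in the wild type, so the groups overlapped in that proportion.

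GH_D04G1365 (activase 2-like) went the other way. It stood at 8.41, 5.41 and 6.16 FPKM in the wild-type libraries and at 3.39, 2.35 and 2.29 FPKM across the transgenic libraries. Every transgenic library was below every wild-type library, and wild type 1 was the highest. The level fell from 6.66 ± 1.56 to 2.68 ± 0.619 FPKM (log2 difference -1.05, standard error 0.198, limma adjusted p = 0.0299). Leaving out transgenic 2, transgenic 3 or wild type 1 ended the call (adjusted p = 0.124, 0.0952 and 0.11), with log2 differences of -0.99, -0.98 and -0.90.

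The gene with the corresponding chromosome number in the A subgenome, GH_A04G1032, was the only gene of the description below the threshold. It stood at 0.369, 0.615 and 0.183 FPKM in the wild-type libraries and at 0.371, 0.421 and 0.290 FPKM across the transgenic libraries, with overlapping groups. By the higher of the group means, the member nearest the threshold was GH_A05G1443. It stood at 4.20 ± 0.0580 FPKM in the wild type and 3.69 ± 0.536 in the transgenic libraries. In a single group, GH_D04G1365 (mean 2.68 FPKM in the transgenic libraries) and GH_A10G2453 (mean 2.94 FPKM in the wild type) stood lower.

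**Figure D2:**
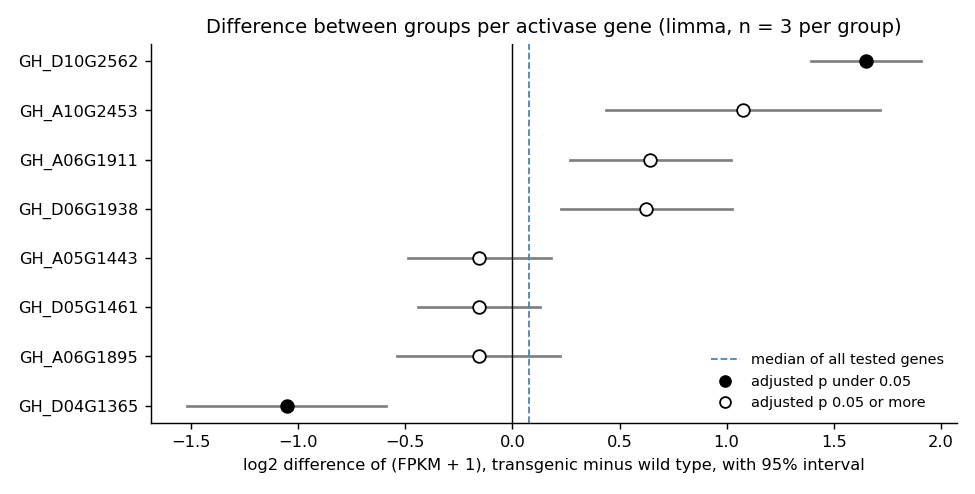
Log2 difference of (FPKM + 1), transgenic minus wild type, with its 95% interval from limma for the 8 members, n = 3 libraries per group. Filled points mark the calls, GH_D10G2562 at 1.65 and GH_D04G1365 at -1.05, and the dashed line marks the median of all tested genes at 0.08.

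The deposited annotation split the family in a way the choice of members did not use. GH_A06G1911, GH_D06G1938, GH_A10G2453, GH_D10G2562, GH_D04G1365 and the weakly expressed GH_A04G1032 each carried 20 gene ontology terms, among them RuBisCO activator activity, chloroplast stroma, response to light stimulus and response to cold. GH_D05G1461, GH_A05G1443 and GH_A06G1895 carried 5 terms, of ATP binding, hydrolase and ATPase activity in the chloroplast and its thylakoid membrane, and none for RuBisCO activation. All 5 members with the activator term had groups that did not overlap, 4 being higher and GH_D04G1365 lower in the transgenic libraries. All 3 without the term had groups that did overlap. Over all tested genes the groups did not overlap in 30.1%. The 5 include the A06 and D06 genes with their nearly identical profiles, so the split is given as a description of few genes.

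GH_D05G1461 stood at 9.24, 10.5 and 10.2 FPKM in the wild-type libraries and at 9.86, 7.79 and 8.99 FPKM across the transgenic libraries. Its log2 difference was -0.16, with a 95% interval of -0.44 to 0.13 (limma adjusted p = 0.476). GH_A05G1443 stood at 4.26, 4.14 and 4.19 FPKM among the wild type and at 3.58, 3.22 and 4.27 FPKM across the transgenic libraries, a log2 difference of -0.15 with an interval of -0.49 to 0.18. Transgenic 3 was as high as the highest wild-type library and the other transgenic libraries were lower.

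GH_A06G1895, which lies 16 gene numbers before GH_A06G1911 on the same chromosome, stood at 8.11, 10.2 and 9.85 FPKM among the wild type and at 8.56, 9.91 and 6.66 FPKM across the transgenic libraries. Its log2 difference was -0.16 with an interval of -0.54 to 0.22. For these 3 genes the intervals exclude a difference as large as that of GH_D10G2562 in either direction, and none was called under any of the 12 alternative settings.

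In both groups the order of mean levels began with GH_D06G1938, GH_A06G1911, GH_D10G2562, GH_D05G1461 and GH_A06G1895. The ranges over libraries of the first 3 did not overlap with those of their neighbours in the order, while those of GH_D05G1461 and GH_A06G1895 did. Below them GH_D04G1365 came sixth in the wild type and eighth of 9 in the transgenic libraries, and GH_A10G2453 eighth and sixth. In the wild type the ranges of GH_A05G1443 and GH_A10G2453 overlapped, and in the transgenic libraries those of GH_A05G1443 and GH_D04G1365.

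The summed level of the 8 members was 344, 392 and 406 FPKM across the transgenic libraries and 249, 204 and 282 FPKM in the wild type. The groups did not overlap in this sum, which is a description of the levels already given. The 5 members with the activator term summed to 360 ± 33.6 FPKM in the transgenic libraries and 221 ± 39.6 FPKM in the wild type, and the 3 without it to 20.9 ± 1.04 against 23.6 ± 1.74 FPKM. In bulk leaf RNA, a larger share of cells that express a gene and more RNA per cell cannot be told apart.

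GH_D06G1938 supplied 48.9% to 51.1% of the summed level in the transgenic libraries and 47.6% to 53.8% in the wild type, and GH_A06G1911 supplied 29.2% to 31.5% and 28.7% to 31.3%. The share of GH_D10G2562 was 11.6%, 11.6% and 12.1% in the transgenic libraries and 5.18%, 6.77% and 4.95% in the wild type. The share of GH_D04G1365 was 0.986%, 0.601% and 0.563% in the transgenic libraries and 3.38%, 2.65% and 2.19% in the wild type. The 3 members without the activator term, whose own levels overlapped, also supplied lower shares of the larger transgenic sum. GH_D05G1461 supplied 1.99% to 2.87% against 3.62% to 5.15% in the wild type, GH_A06G1895 1.64% to 2.53% against 3.26% to 5.02%, and GH_A05G1443 0.821% to 1.05% against 1.49% to 2.03%. GH_A10G2453 supplied 1.42% to 2.17% against 0.695% to 2.09%. Shares thus overlapped between groups for the abundant pair and GH_A10G2453, and not for the other 5 members.

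**Figure D3:**
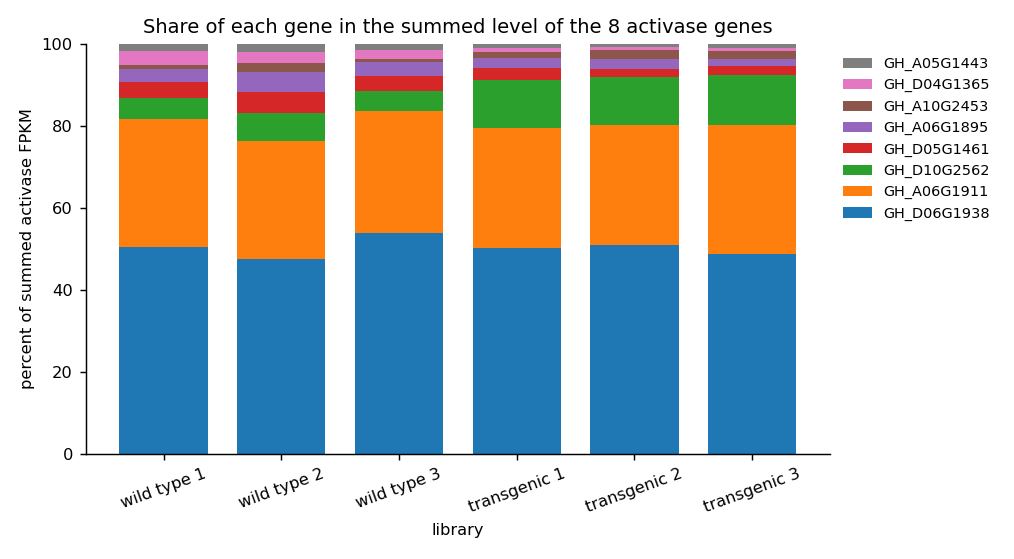
Percent of the summed FPKM of the 8 members supplied by each gene, 1 bar per library and no error bars. The green segment of GH_D10G2562 is 11.6% to 12.1% of the transgenic bars and 4.95% to 6.77% of the wild-type bars, while the blue and orange segments of the chromosome 6 pair are similar in all 6.

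The authors' deposited table called 3 of the 8 members, as against 5.12% of all 72761 genes. Its calls were the 3723 genes with an unadjusted p under 0.05 and at least a 2-fold ratio of mean FPKM, and the test behind the p was not named. The authors' deposited table gave a q-value of 3.16e-16 for GH_D10G2562, 5.78e-05 for GH_D04G1365 and 0.00521 for GH_A10G2453. For GH_A06G1911 and GH_D06G1938 the authors' deposited table gave q-values of 0.0661 and 0.107 and no call. GH_A10G2453 was thus called in the deposited table and not by limma (adjusted p = 0.0657).

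**Figure D4:**
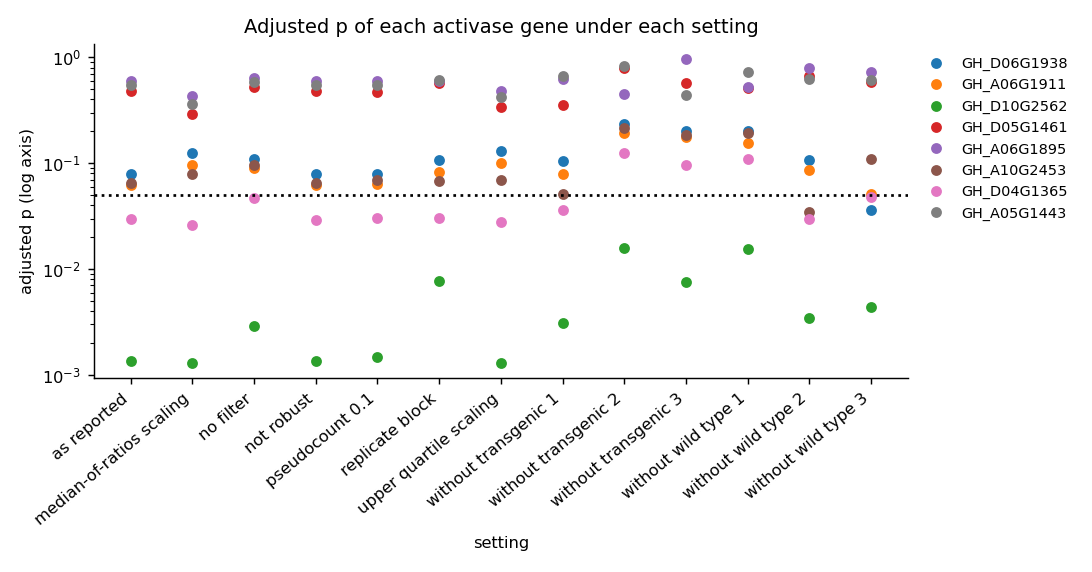
Adjusted p (log axis) of each member as reported and under 12 alternative settings, with the 0.05 threshold dotted. GH_D10G2562 lies between 0.00129 and 0.0159 throughout, GH_D04G1365 crosses the threshold when transgenic 2, transgenic 3 or wild type 1 is left out, and the 3 genes without the activator term stay above 0.29.

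The enzyme that activase serves has nuclear small subunits and a large subunit encoded in the chloroplast. Of 6 small subunit genes tested, 2 were called higher and none lower, and 4 had a positive log2 difference. GH_A11G1702 stood at 47.5, 51.1 and 124 FPKM across the transgenic libraries and at 9.52, 9.41 and 8.55 FPKM in the wild type (log2 difference 2.75, limma adjusted p = 0.00933). GH_D11G1742 stood at 76.3, 71.8 and 222 FPKM against 28.97, 20.2 and 21.4 FPKM (log2 difference 2.15, adjusted p = 0.0325), a call that ended without the filter on genes under 1 FPKM and without transgenic 2 or any 1 wild-type library (adjusted p up to 0.0952). Transgenic 3 was the highest by far in both genes, unlike in the activase genes.

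The most abundant small subunit gene, GH_A07G1943, named here after its level was seen, stood at 779 ± 254 FPKM in the transgenic libraries and 593 ± 92.7 FPKM in the wild type, with overlapping groups (adjusted p = 0.405). GH_A03G0320, also named after its level was seen, was lower in every transgenic library. It stood at 6.67 ± 0.935 FPKM in the transgenic libraries and 9.35 ± 1.24 FPKM in the wild type (limma adjusted p = 0.126, not called). Small subunit transcript summed over the 6 genes was 2.46, 1.88 and 3.66 times the summed activase level in the transgenic libraries and 3.03, 3.25 and 1.96 times in the wild type. The groups overlapped in this ratio. Of 7 genes described as copies of the large subunit, 1 was expressed enough to be tested, at 1.94 ± 0.662 against 1.56 ± 0.156 FPKM, and was not called. By its identifier this gene, GH_A07G1719, lies on nuclear chromosome A07, so its level is not a measure of the large subunit gene in the chloroplast.

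Genes that act on RuBisCO before or beside activase did not pass the test. Of 18 tested folding and assembly factors, among them the chaperonin subunits that fold the large subunit, limma called none, with 5 at an unadjusted p under 0.05 and a median log2 difference of 0.01, and after either scaling 1 was called lower. Of 9 tested genes for inhibitor removal or RuBisCO methylation, limma also called none, with 2 at an unadjusted p under 0.05 and a median of 0.13. These counts are to be read against 10524 of all 43837 tested genes at an unadjusted p under 0.05 by limma.

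Thioredoxins of the chloroplast carry electrons from light reactions to stromal enzymes, activase among them. Both tested thioredoxin F-type genes fell. GH_A13G1362 stood at 4.76, 7.62 and 6.37 FPKM across the transgenic libraries and at 29.8, 24.7 and 23.3 FPKM in the wild type (log2 difference -1.91, standard error 0.171, limma adjusted p = 0.00384). GH_D13G1293 stood at 32.6, 22.3 and 26.03 FPKM against 94.1, 78.2 and 78.2 FPKM (log2 difference -1.61, standard error 0.156, adjusted p = 0.00474). The groups were far apart in both genes, and both were called under all 12 alternative settings. Of 9 M-type genes 1 rose, GH_A05G2410 at 38.8 ± 2.60 against 23.8 ± 4.06 FPKM (adjusted p = 0.0338), a call that ended without the filter and without any 1 library other than wild type 2 (adjusted p up to 0.131). None of 5 reductase genes was called by limma.

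Phosphoribulokinase, which makes the substrate of RuBisCO, rose in all 4 tested genes. GH_D03G1951 rose from 7.62 ± 1.32 to 24.1 ± 1.39 FPKM (log2 difference 1.55, limma adjusted p = 0.00346) and GH_A03G0010 from 10.2 ± 1.16 to 28.3 ± 2.66 FPKM (log2 difference 1.39, adjusted p = 0.00353). GH_A12G2244 rose from 37.2 ± 1.71 to 70.0 ± 2.85 FPKM (adjusted p = 0.0056) and GH_D12G2262 from 46.9 ± 2.20 to 65.5 ± 1.27 FPKM (adjusted p = 0.0305). The last call ended after either scaling and without any 1 library other than wild type 3 (adjusted p up to 0.114). The CP12 proteins, which bind phosphoribulokinase in the dark, had 10 tested genes with log2 differences of -0.25 to 0.20.

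Of 35 other tested Calvin cycle genes 16 rose and none fell, with a median log2 difference of 0.45. The rise with the smallest adjusted p was that of GH_A07G2639, a chloroplast glyceraldehyde-3-phosphate dehydrogenase, from 15.5 ± 0.551 to 35.7 ± 5.76 FPKM (limma adjusted p = 0.0081), not called without transgenic 2 (adjusted p = 0.055). Leaving out transgenic 2 left 0 rises by limma, and leaving out transgenic 3 or wild type 1 left 2 each.

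Carbonic anhydrases, which speed the exchange of carbon dioxide and bicarbonate, had 1 rise and 1 fall among 30. The share called was 6.67%, close to the 5.7% of all tested genes. GH_D11G1940, a mitochondrial gamma type, stood at 16.7 ± 2.12 against 10.4 ± 1.37 FPKM (limma adjusted p = 0.0445, not called after median-of-ratios scaling) and GH_D05G2226, a beta type, at 17.5 ± 4.84 against 33.6 ± 2.69 FPKM (adjusted p = 0.0358). Both calls ended without the filter, and without any 1 library for GH_D11G1940 (adjusted p up to 0.151) or any 1 other than transgenic 1 for GH_D05G2226 (adjusted p up to 0.111).

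**Figure D5:**
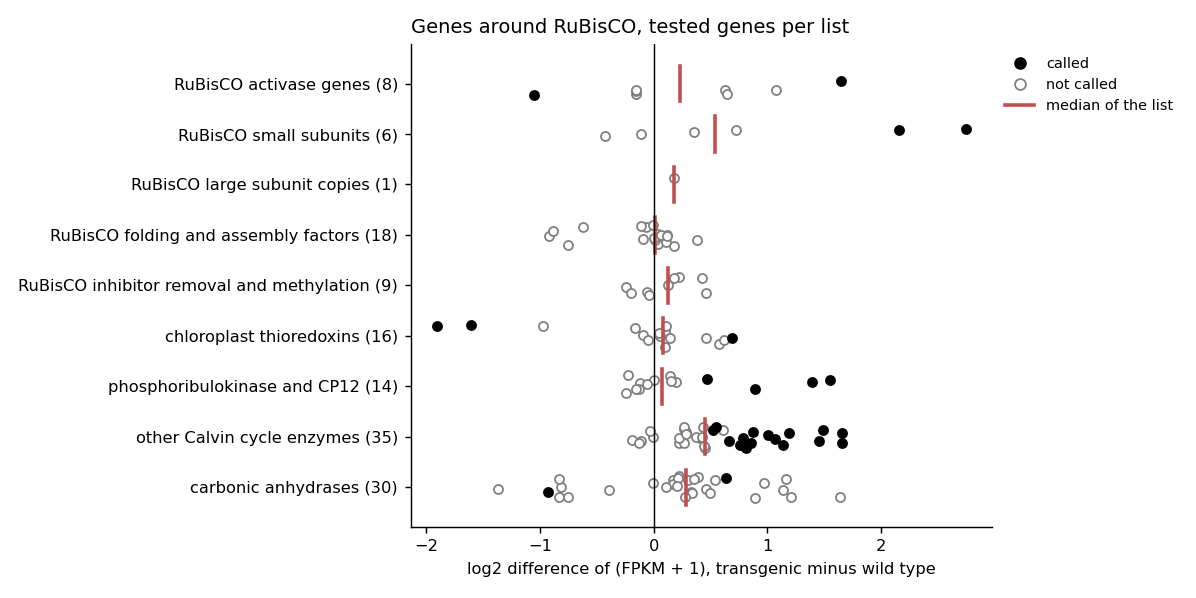
Log2 difference of (FPKM + 1), transgenic minus wild type, for each tested gene of the activase family and of 8 lists of genes around RuBisCO, with the number tested in parentheses, black points for calls and red bars for list medians. Activase genes spread from -1.05 to 1.65, and thioredoxin holds both calls below -1.5.

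Marker genes of leaf cells and tissues were summed beside these levels. Chlorophyll a-b binding genes, which mark green leaf tissue, had 23 of 40 tested genes lower and none higher, all 23 among the 36 that reached 1 FPKM in both groups, and their 47 genes summed to 1388 to 1661 FPKM in the transgenic libraries and 3178 to 4572 FPKM in the wild type. Summed activase and summed antenna levels of the transgenic libraries thus lay on opposite sides of the wild type. The RuBisCO small subunits, also chosen as markers of green leaf tissue, did not fall as a set with the antenna genes. Of 6 tested genes 2 were called higher and none lower, and GH_A03G0320 was lower in every transgenic library without a call. The 6 genes summed to 736 to 1489 FPKM in the transgenic libraries and 553 to 756 FPKM in the wild type, with overlapping groups. The 33 xylem markers summed to 45.3 to 95.3 FPKM against 10.97 to 12.5 FPKM, with 7 genes at 0 in all libraries. Of 14 tested xylem markers 11 reached 1 FPKM in the transgenic group only, so their calls are not counted, and 2 of the 3 that reached it in both groups rose. The antenna call with the smallest adjusted p was GH_A05G1509, a protein of the LHCII type (log2 difference -3.81, limma adjusted p = 0.000426). GH_D11G3771, a laccase among the xylem markers that reached 1 FPKM in the transgenic group only, is described by its levels. It stood at 16.9 ± 7.32 FPKM in the transgenic libraries and 0.655 ± 0.298 FPKM in the wild type.

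Dividing cell markers had no call among 4 tested genes, with 2 at an unadjusted p under 0.05 by limma, and 10 genes summed to 105 to 125 FPKM in the transgenic libraries and 136 to 138 FPKM in the wild type. Phloem markers had no call among 15, with 4 at an unadjusted p under 0.05, and 36 genes summed to 145 to 191 against 173 to 225 FPKM. The seed list, with its late embryogenesis abundant proteins, had 38 tested genes, of which 20 reached 1 FPKM in both groups. Of these 20, limma called 1 higher (GH_D08G0714, log2 difference 0.78, adjusted p = 0.0362) and none lower. That call ended without any 1 library (adjusted p up to 0.143). In the seed list 14 genes had an unadjusted p under 0.05. Over all 43837 tested genes, 10524 had an unadjusted p under 0.05 by limma. Of the 38, 18 reached 1 FPKM in the wild type only, so their calls are not counted. Among those 18, GH_D01G0721 stood at 0.0807 ± 0.0814 FPKM in the transgenic libraries and 51.2 ± 57.8 FPKM in the wild type. The 69 genes of the seed list summed to 23890 to 33630 FPKM in the transgenic libraries and 23990 to 31130 FPKM in the wild type, with overlapping groups. The 23 seed storage genes, a list added after values were seen, summed to 119 to 168 against 136 to 304 FPKM. The part of these marker differences in the activase levels was not tested.

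The profiles most like that of GH_D06G1938 over the 6 libraries, by root mean square difference of centred log2(FPKM + 1) among 30456 described genes, were those of GH_D09G0541, subtilisin-like protease SBT1.3 (0.0336), GH_D08G2839, 60S ribosomal protein L39 (0.0385), and GH_A13G1744, RABA1f, a small GTPase of vesicle traffic (0.0622). GH_D09G0541 stood at 31.5, 37.4 and 35.9 FPKM across the transgenic libraries and at 23.4, 18.5 and 28.7 FPKM in the wild type, with the same lowest library.

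For GH_D10G2562 the nearest were GH_A03G1759, a xylosyltransferase IRX10 (0.0883), GH_D07G2262, cellulose synthase subunit 4 (0.0995), both of the secondary cell wall, and GH_A12G2576, ABIL2-like (0.116). These are far weaker genes, and each reached 1 FPKM in the transgenic group only, so they are described by their levels. GH_D07G2262 stood at 1.43, 2.21 and 2.36 FPKM across the transgenic libraries and at most 0.0442 in the wild type. GH_A03G1759 stood at 1.52, 2.24 and 2.24 FPKM against at most 0.0443, and GH_A12G2576 at 2.89, 3.24 and 4.14 FPKM against at most 0.710. With a pseudocount of 1 FPKM, a gene that moves from near 0 to about 2 FPKM has the same log2 difference as one that moves from 13.6 to 44.8 FPKM.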

How the data were processed

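Per the labels' protocols, poly-T selected leaf RNA was made into libraries with NEBNext kits. The authors deposited 1 table of FPKM values per gene and library. The sources used here do not give the aligner, counting program, genome build, annotation or use of strand. The value 1e-04, the lowest in the table, was taken as 0. Per the file headers, the deposited table also held a fold change, which is a ratio of mean FPKM, its log2, a p-value and a q-value. Counts were not analysed here, so depth is unknown and no count test was run.

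Differences were tested two-sided with limma-trend (limma 3.58.1, R 4.3.3, robust, without covariates) on FPKM plus a pseudocount of 1 on the log2 scale. Genes entered if either group averaged 1 FPKM or more, and p was adjusted by Benjamini-Hochberg across them, with calls under 0.05. Relative depth was read from values under 0.15 FPKM. Alternatives were a pseudocount of 0.1, no filter, median-of-ratios and upper quartile scaling, no robust estimation, a replicate block, and leaving out each library. Members and lists (patterns searched in protein descriptions) were chosen with earlier results of these data known, so adjusted p of members is no independent support. Some patterns were tightened after reading the descriptions they matched, and the seed storage list was added after seeing values. Named genes were all members, per list the call with the smallest adjusted p in either direction and all calls where a direction had 5 or fewer, and the 3 genes nearest in profile to the most abundant and to the most changed member. Coordinates and sequences were not used here.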

Additional observations from a re-analysis of the deposited data

How the results depend on the processing

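Over all genes, 2500 were called as reported and 1532 with the replicate block. Leaving out 1 library gave 289 to 2552 calls, namely 289 with transgenic 2 left out, 803 with transgenic 3 and 420 with wild type 1. Of the 8 activase genes, 2 were called as reported, with the replicate block and under each change of scaling, filter, pseudocount or robust estimation, and 1 to 3 without 1 library. The single call without transgenic 2, transgenic 3 or wild type 1 was GH_D10G2562. GH_A10G2453 was a further call without wild type 2, and GH_D06G1938 without wild type 3. No activase gene changed sign under any alternative. Fewer libraries also mean fewer degrees of freedom.

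Same-numbered libraries did not deviate together, with correlations across genes of 0.0136, 0.0261 and 0.074 for numbers 1 to 3, so the numbers were not taken as pairs. With the block, adjusted p was 0.00767 for GH_D10G2562 and 0.0305 for GH_D04G1365, the Calvin cycle list had 8 rises in place of 16, and the carbonic anhydrases had 0 calls in place of 2. The calls of GH_A05G2410, GH_D12G2262 and GH_D08G0714 also ended with the block. Levels of a few FPKM, as in GH_D04G1365 and GH_A10G2453, rest on an unknown number of reads.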

Other observations

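All 9 activase genes carried the KEGG orthology entry K02960 and the ribosome pathway in the deposited annotation. The entry held 19 genes, the others being 8 genes described as 40S ribosomal protein S16 and 2 with other descriptions. In the main comparison none of the 8 S16 genes was called by limma, with log2 differences of 0.05 to 0.63, while the activase genes ranged from -1.05 to 1.65. Over all 43837 tested genes, 2500 (5.7%) were called. Under the ribosome pathway of that annotation, 1181 genes were tested and 43 called. The 8 expressed activase genes and their 2 calls were among them, although their descriptions name no ribosomal protein.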
